A study of Homo sapiens with 16 samples.

Results

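The genes described here are the 60 members of 4 families of axon guidance genes: the Eph receptors and their ephrin ligands, the semaphorins, the plexins and neuropilins that receive them, and the netrins with their receptors DCC and UNC5. They were chosen by family from 19974 protein-coding genes and all 60 matched a gene record (RefSeq, GRCh38.p14). The marks read were H3K27me3 and H3K4me3, by ChIPmentation, a form of ChIP-seq in which sequencing adaptors are inserted by transposase while the chromatin is on the beads. The cells were TKO, a derivative of the multiple myeloma line KMS-11, labelled as plasma cells with the genotype WHSC1(+/-) in every group, and WHSC1 is another name of NSD2. The groups were TKO cells with NSD2 carrying the substitution D1240A, TKO cells with NSD2 carrying F1295A, plain TKO cells for which no form is named, and TKO cells with wild type NSD2 (WT), and how a form was brought into the cells is not given in the sources used here. Each of these 4 forms had 2 H3K27me3 samples, whose labels point to a shared peak list, and 1 H3K4me3 sample, so the measurements were 8 lists, no difference between forms had a replicate check, and no test could be run. The series asked how mutant NSD2 alters chromatin marks, and its title names cell adhesion genes, to which ephrin and semaphorin signalling is close.

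Ephrins are ligands held on the surface of a cell, by a lipid anchor in the A class and by a membrane-spanning segment in the B class, and they signal to Eph receptor tyrosine kinases on a neighbouring cell. Semaphorins are secreted or membrane-bound ligands of plexins, with neuropilins as co-receptors for most secreted members, and netrins signal through DCC and the UNC5 receptors. All of these steer growing axons and migrating cells by changing adhesion and the cytoskeleton, and several, such as SEMA4D and SEMA7A, also act between immune cells. H3K27me3 is written by Polycomb repressive complex 2 and marks silent developmental genes, H3K4me3 marks active and poised promoters, and NSD2 methylates H3K36, a modification that hinders Polycomb methylation on the same histone tail. TKO cells are known as a derivative of KMS-11 in which the NSD2 allele activated by the t(4;14) translocation has been disrupted.

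Marked genes are those with a peak no farther than 1 kb from the lower or the higher end of the record. Marked length is the number of bases under peaks within 10 kb of the gene ends, which is at most about 40 kb, and a peak's rank is its percentile by total signal among the peaks of its own list. The H3K27me3 lists held 2188 peaks in D1240A, 2083 in F1295A, 5881 in TKO and 3790 in WT, and the H3K4me3 lists 7712, 8239, 7396 and 8140 in the same order of forms. Neither read depth nor the calling threshold is known for these lists, and their part in any difference between forms was not tested. Of 12 plasma cell markers, 7 to 9 had H3K4me3 across the forms, among them IRF4, PRDM1 and XBP1 in every form, while SDC1 had H3K27me3 in every form and H3K4me3 as well in F1295A and WT. H3K4me3 was at 0 of 8 T and NK cell markers and 0 of 8 stromal and endothelial markers in every list, and at 1 or 2 of 8 B cell markers. It was also at the neuron marker SYT1 in every form and TUBB3 in WT, and at the myeloid marker FCGR3A in F1295A. H3K27me3 was at 1 of the 8 B cell markers in D1240A, 1 in F1295A, 1 in TKO and 5 in WT. In the same order of forms, it was at 0, 1, 4 and 1 of the 8 myeloid markers. The counts were 1, 2, 3 and 1 for the 8 stromal and endothelial markers, and 0, 0, 1 and 0 for the 8 T and NK cell markers. It was at 2 of the 8 neuron markers in every form, and of the plasma cell markers SLAMF7 had it in TKO alone.

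The guidance genes carried H3K27me3 more often than genes at large and H3K4me3 less often, in all 4 forms. H3K27me3 marked 12 of the 60 in D1240A, 12 in F1295A, 16 in TKO and 20 in WT, or 20.0%, 20.0%, 26.7% and 33.3%. Among all 19974 genes the shares were 5.36%, 5.79%, 10.0% and 9.57%. H3K4me3 marked 16 of the 60 in D1240A, 19 in F1295A, 12 in TKO and 21 in WT, or 26.7%, 31.7%, 20.0% and 35%, against 41.6%, 44.5%, 39.9% and 43.6% of all genes. In all, 16 members had only H3K27me3, 18 only H3K4me3, 4 had both marks and 22 had neither at their ends in any list. Among all genes the shares of these classes were 9.39%, 43.0%, 2.42% and 45.2% in the same order. H3K27me3 stood at 12 members in every form and at 40 in none, against 4.62% and 88.2% of all genes, and H3K4me3 at 10 in every form and at 38 in none, against 39.0% and 54.6%. The median marked length of the H3K27me3-marked members was 14.97 kb in D1240A, 18.1 kb in F1295A, 18.6 kb in TKO and 16.8 kb in WT, against 13.2, 15.05, 12.99 and 14.4 kb over all marked genes. Their strongest peaks had a median rank at the 74.0th, 81.2nd, 91.3rd and 83.5th percentile in those lists, against the 60.9th, 63.3rd, 70.9th and 71.9th over all marked genes. The H3K4me3-marked members had median ranks at the 35.04th percentile in D1240A, 36.7th in F1295A, 77.1st in TKO and 38.03rd in WT, where all marked genes stood between the 54.4th and 55.7th.

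**Figure D1:**
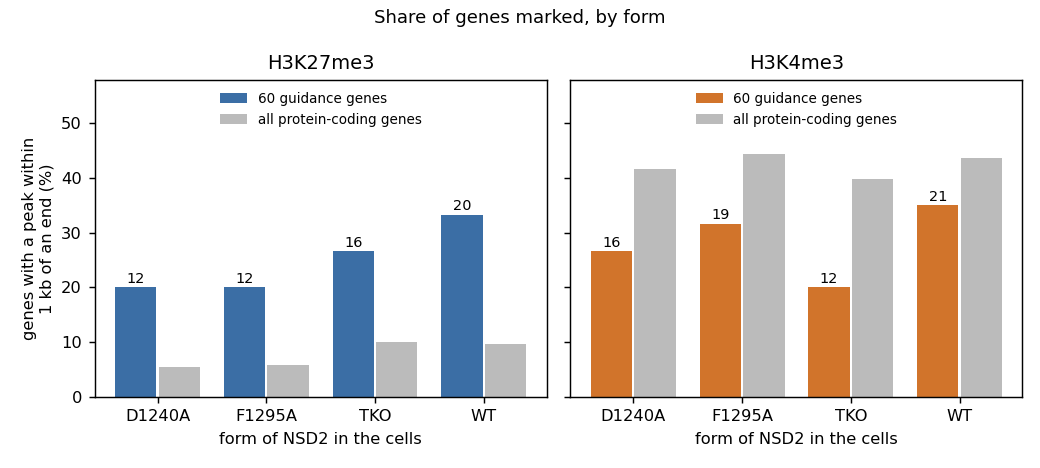
Percent of genes with a peak within 1 kb of a gene end (y axis) in each form of NSD2 (x axis), for the 60 guidance genes (coloured bars, with the number marked) and all 19974 protein-coding genes (grey bars). The guidance genes stand above all genes for H3K27me3 (20.0% to 33.3%) and below them for H3K4me3 (20.0% to 35%) in every form.

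The sequence at the gene starts differed between the classes of mark. A window of 300 bases, from 250 before the start to 50 after it, was listed in RefSeq (GRCh38.p14) for 51 of the 60 members. CG dinucleotides, which read CG on both strands and cannot overlap themselves, occurred in 98.1% of 15813 such windows of protein-coding genes and in all 51 members, so their number was compared. The 14 members with only H3K27me3 had a median of 34 CG in the window, from 7 in SEMA5B to 52 in PLXND1, while 1320 genes with only H3K27me3 had a median of 12. The 17 members with only H3K4me3 had a median of 25, from 3 in EPHB6 to 54 in PLXNA1, against 27 over all genes of that class. The 16 members without a mark had a median of 16, and the highest among them was 33 in NRP2. The 4 members with both marks had 28 or 29. The classes go by marks at either end of the record, and the window lies at a listed start. At EPHA2 the H3K27me3 lay more than 1 kb from every listed start, as did the H3K4me3 at EPHB6, EFNA1, SEMA4G and PLXNB2. The listed start of EPHB6 had H3K27me3 in TKO and WT. At SEMA3B and SEMA4A the start whose window was counted lay more than 1 kb from every H3K27me3 peak, and another listed start lay under one. The 250 bases before the start are printed for 6 members whose marks differed between forms and whose listed start lay under a peak in WT, 5′ to 3′ along the gene, with CG in capitals. EFNA3 carried both marks in WT and neither in either mutant, PLXNA2 carried both marks in every form but TKO, SEMA3G, SEMA7A and PLXND1 carried H3K27me3 in WT and not in the mutants, and PLXNA1 lacked H3K4me3 in TKO. They hold 4 CG in SEMA3G, 17 in SEMA7A, 23 in EFNA3, 27 in PLXNA2, 41 in PLXND1 and 46 in PLXNA1 in those bases. They lie at chr1:155078587-155078836 (plus strand) for EFNA3, chr1:208244385-208244634 (minus strand) for PLXNA2, chr3:52445104-52445353 (minus strand) for SEMA3G, chr15:74433959-74434208 (minus strand) for SEMA7A, chr3:129606677-129606926 (minus strand) for PLXND1 and chr3:126982865-126983114 (plus strand) for PLXNA1.
EFNA3: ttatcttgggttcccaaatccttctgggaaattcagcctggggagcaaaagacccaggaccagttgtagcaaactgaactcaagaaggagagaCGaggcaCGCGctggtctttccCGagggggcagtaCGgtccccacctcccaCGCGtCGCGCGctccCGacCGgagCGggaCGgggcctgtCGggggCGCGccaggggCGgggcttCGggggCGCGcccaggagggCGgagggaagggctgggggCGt
PLXNA2: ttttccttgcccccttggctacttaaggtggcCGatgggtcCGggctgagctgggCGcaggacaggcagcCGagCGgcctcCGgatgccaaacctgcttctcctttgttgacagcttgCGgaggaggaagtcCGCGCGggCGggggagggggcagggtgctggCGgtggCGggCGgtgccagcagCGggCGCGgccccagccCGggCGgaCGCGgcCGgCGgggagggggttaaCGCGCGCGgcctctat
SEMA3G: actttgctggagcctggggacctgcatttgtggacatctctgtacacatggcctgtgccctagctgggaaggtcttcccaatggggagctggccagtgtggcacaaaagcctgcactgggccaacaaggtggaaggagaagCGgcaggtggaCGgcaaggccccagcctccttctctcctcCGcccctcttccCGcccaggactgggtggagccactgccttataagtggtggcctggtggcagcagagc
SEMA7A: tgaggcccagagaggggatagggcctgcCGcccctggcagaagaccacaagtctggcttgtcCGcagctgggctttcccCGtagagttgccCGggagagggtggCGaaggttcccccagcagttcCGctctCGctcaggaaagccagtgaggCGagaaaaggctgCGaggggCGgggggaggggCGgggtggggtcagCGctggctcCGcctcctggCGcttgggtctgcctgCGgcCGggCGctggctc
PLXND1: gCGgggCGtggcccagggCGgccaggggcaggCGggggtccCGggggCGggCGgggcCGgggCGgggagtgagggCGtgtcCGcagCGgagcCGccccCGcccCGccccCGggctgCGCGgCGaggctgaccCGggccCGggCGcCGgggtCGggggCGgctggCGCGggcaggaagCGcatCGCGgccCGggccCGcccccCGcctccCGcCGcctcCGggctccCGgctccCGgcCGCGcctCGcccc
PLXNA1: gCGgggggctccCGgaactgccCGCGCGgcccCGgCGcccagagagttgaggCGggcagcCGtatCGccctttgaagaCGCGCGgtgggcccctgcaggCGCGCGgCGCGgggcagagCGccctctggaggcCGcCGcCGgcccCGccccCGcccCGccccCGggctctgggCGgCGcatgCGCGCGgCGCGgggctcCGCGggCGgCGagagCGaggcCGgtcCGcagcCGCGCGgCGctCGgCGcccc

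**Figure D2:**
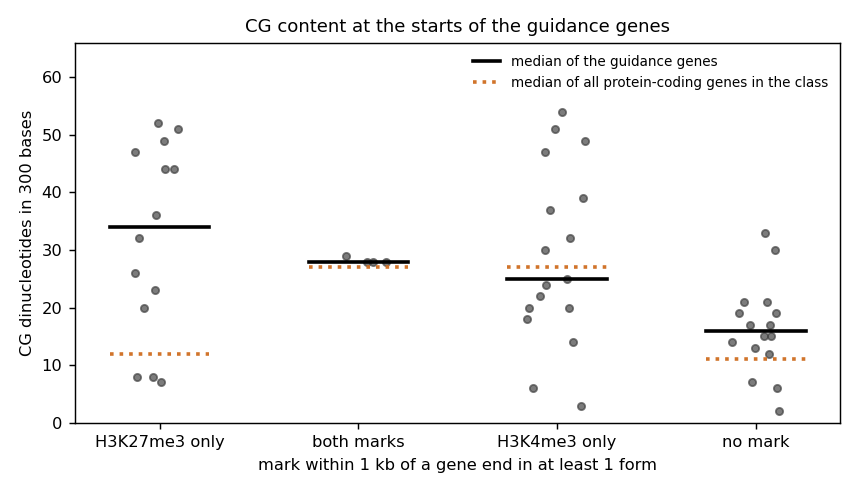
Number of CG dinucleotides in the 300 bases around the start (y axis) of each of 51 guidance genes (points, spread sideways for sight), by the marks found at their ends in at least 1 form (x axis). Black lines are the medians of the guidance genes, 34, 28, 25 and 16 from left to right, and dotted lines the medians of all protein-coding genes of the class, 12, 27, 27 and 11.

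Among the 14 Eph receptor genes, H3K27me3 covered EPHA2, EPHA8, EPHB2, EPHB3 and EPHB4 in all 4 forms, and H3K4me3 was found at EPHA6 in all 4. EPHA8, an ephrin-A receptor at chr1:22563489-22603595, had the longest marked length, with 31.9 kb in D1240A, 40.002 kb in F1295A, 38.5 kb in TKO and 40.002 kb in WT. EPHB2, which lies farther along chromosome 1 and encodes an ephrin-B receptor, had 23.8 kb in D1240A, 27.7 kb in F1295A, 36.4 kb in TKO and 36.4 kb in WT. In EPHB3, another ephrin-B receptor, the lengths were 28.1, 32.8, 37.8 and 38.1 kb in the same order of forms. At these 3 genes a peak lay over the listed start in every form, and D1240A had the shortest marked length. EPHB4, the venous receptor of ephrin-B2, had 9.50 kb in D1240A, 13.3 kb in F1295A, 8.90 kb in TKO and 14.0 kb in WT. The start lay under a peak in every form, which also covered the start of SLC12A9, and F1295A, TKO and WT had a further peak beyond the other end. At EPHA2, a receptor of ephrin-A1 with 9.71, 16.9, 9.16 and 20.0 kb, the peaks at the gene lay 19.6 to 24.5 kb from the listed start, at its far end, and the lengths in F1295A and TKO include a second peak beyond the gene, 34.7 and 39.7 kb from the start. EPHB1, another ephrin-B receptor, had no peak of either mark within 10 kb in any list.

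EPHA10 and EPHB6 encode receptors without kinase activity. EPHA10 was marked by H3K27me3 in WT alone, by a peak of 8.65 kb at the 25.6th percentile, and TKO had 2.58 kb within 10 kb and the mutants none. EPHB6 had H3K27me3 over its listed start in TKO (7.87 kb) and WT (7.31 kb) and no such peak within 10 kb in the mutants. It also had H3K4me3 at the lower end of its record in F1295A and WT, 6.37 and 6.72 kb from the listed start, at the 0.637th and 1.33rd percentile, among the weakest peaks of those lists. EPHA6 had 5.20 kb of H3K4me3 in D1240A, 5.02 kb in F1295A, 4.54 kb in TKO and 4.70 kb in WT over its start, between the 95.5th and 96.9th percentile. EPHA7 had 4.47 kb in D1240A, 4.22 kb in F1295A, none within 10 kb in TKO and 4.002 kb in WT, and those peaks ranked between the 8.88th and 29.8th percentile. EPHA3, EPHA4 and EPHA5 had no peak of either mark within 10 kb of their ends in any list, and EPHA1 had H3K4me3 only 25.5 to 26.3 kb from its start, in a peak at the listed starts of ZYX and FAM131B.

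**Figure D3:**
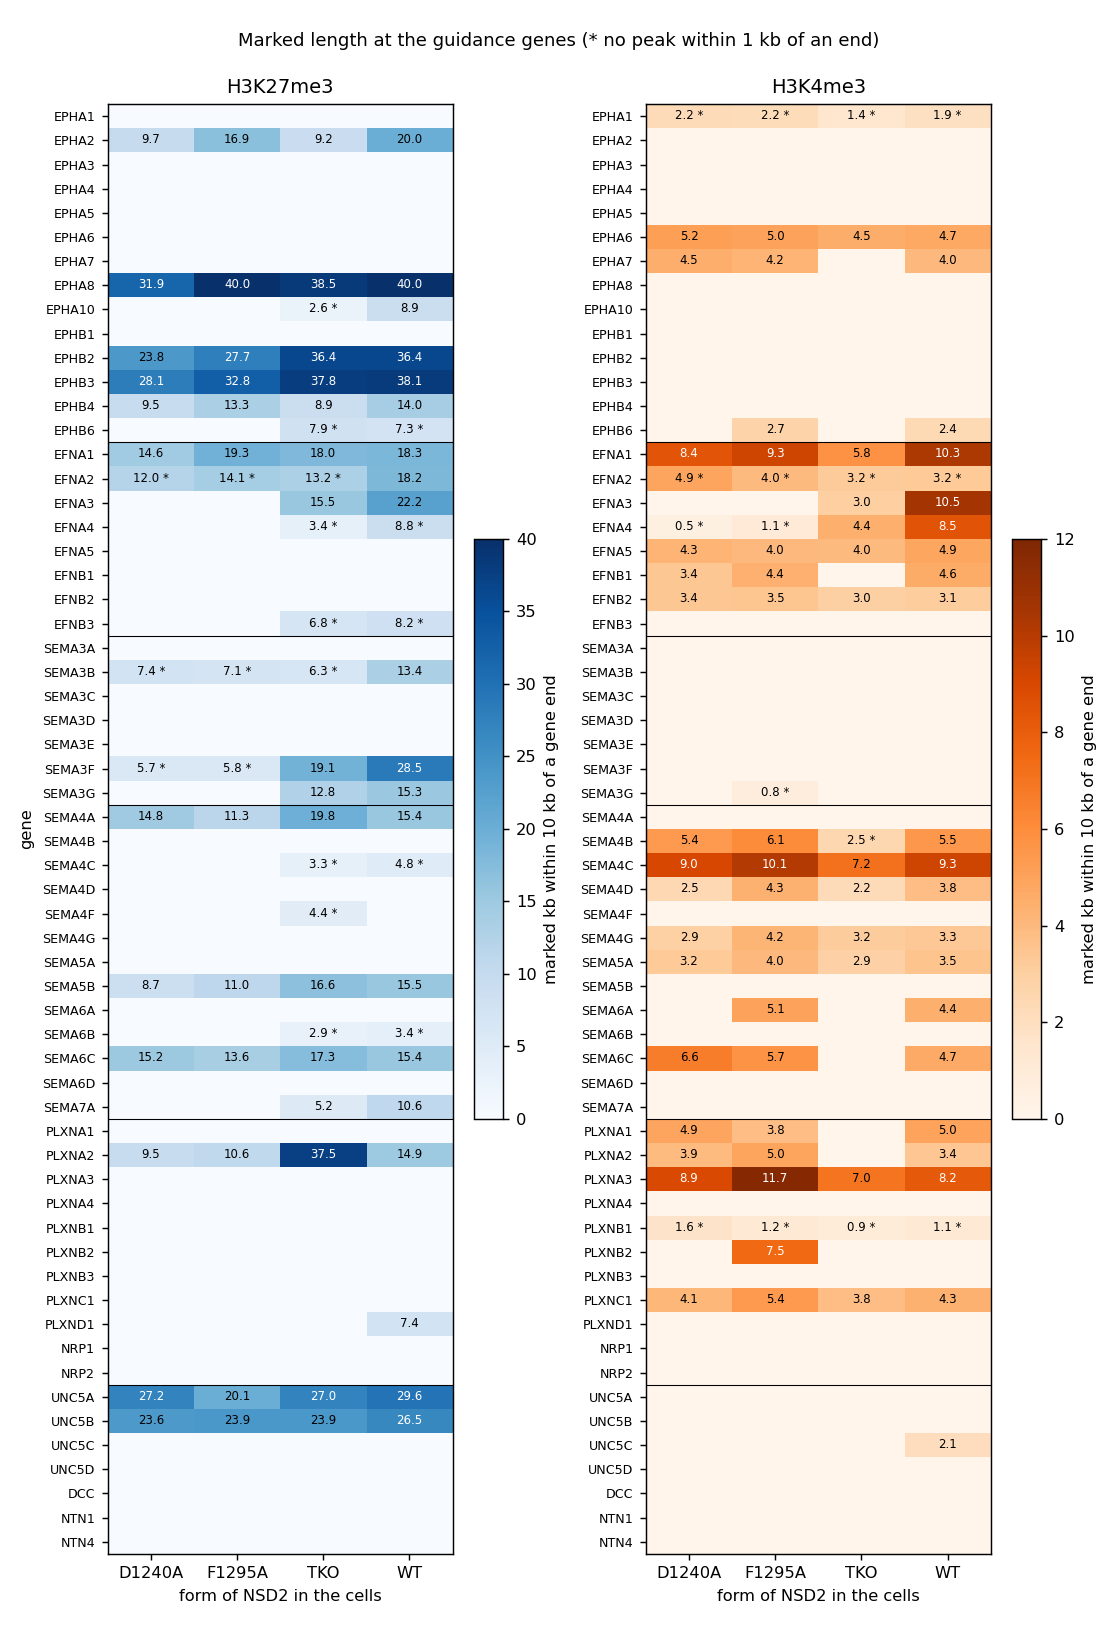
Bases under peaks near the gene ends, up to 10 kb away (colour and number, kb), for the 60 guidance genes (rows, in the order Eph receptors, ephrins, secreted semaphorins, membrane semaphorins, plexins and neuropilins, netrins and their receptors) in each form of NSD2 (columns), for H3K27me3 on the left and H3K4me3 on the right. Blank cells had no peak within 10 kb, and an asterisk marks cells with no peak within 1 kb of an end. EPHA8, EPHB2 and EPHB3 hold 23.8 to 40.002 kb of H3K27me3 in every form, and 12 members have H3K27me3 at an end in all 4 forms.

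Among the 8 ephrin genes, 4 had H3K4me3 in D1240A, 4 in F1295A, 5 in TKO and 6 in WT, and 1, 1, 2 and 3 had H3K27me3. Of all genes, 41.6%, 44.5%, 39.9% and 43.6% had H3K4me3, and 5.36%, 5.79%, 10.0% and 9.57% had H3K27me3. EFNA5, an ephrin-A, had 4.26 kb of H3K4me3 in D1240A, 4.03 kb in F1295A, 3.97 kb in TKO and 4.86 kb in WT. EFNB2, the ephrin-B of arteries, had 2.98 to 3.51 kb of H3K4me3, and in both genes it lay over the start in every form. EFNB1, an X-linked ephrin-B, had 3.39 kb in D1240A, 4.36 kb in F1295A, none within 10 kb in TKO and 4.56 kb in WT, in peaks at the 3.002nd, 21.1st and 16.6th percentile. None of these 3 had H3K27me3 within 10 kb in any list. EFNA2 had H3K27me3 in every form, with 12.001 kb in D1240A, 14.1 kb in F1295A, 13.2 kb in TKO and 18.2 kb in WT. The WT peak reached the end of the record, while those of the mutants and TKO began 0.187 to 0.531 kb from the listed start, which lies inside the record. EFNB3 had H3K27me3 within 10 kb in TKO (6.81 kb) and WT (8.17 kb), beyond 1 kb of its ends, and none in the mutants.

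EFNA4, EFNA3 and EFNA1 are 3 ephrin-A genes that stand in a row on chromosome 1. EFNA3 differed between the mutants and the other cells in both marks, and EFNA4 in H3K4me3 at its ends. Over EFNA3 (chr1:155078837-155087538), H3K27me3 covered 15.5 kb in TKO and 22.2 kb in WT within 10 kb of the ends, and H3K4me3 covered 3.01 kb in TKO and 10.5 kb in WT. D1240A and F1295A had no peak of either mark there. The H3K27me3 peak over EFNA3 itself was 10.1 kb wide in TKO and 15.4 kb in WT, and the remaining H3K27me3 lay in a further peak beyond the gene. EFNA4 had 4.42 kb of H3K4me3 in TKO and 8.46 kb in WT, with a peak over its start. That peak was 4.42 kb wide in TKO and 5.65 kb in WT, where the remaining bases belonged to the peaks at EFNA3 and ADAM15. EFNA4 had no peak at its ends in D1240A or F1295A, whose 0.498 and 1.09 kb within 10 kb belonged to a peak at the start of ADAM15. In the mutants no peak of either mark lay between the ADAM15 peak and a point 23.1 kb (D1240A) or 22.4 kb (F1295A) beyond the EFNA3 start, a gap of 47.7 kb in D1240A and 46.4 kb in F1295A. Both marks were absent over the same stretch, and whether DNA was recovered there in the mutants was not tested, since IgG samples are not used here. The missing WT peaks were strong: H3K4me3 at EFNA4 and EFNA3 ranked at the 96.3rd and 95.6th percentile of the WT list, and H3K27me3 at EFNA3 at the 96.2nd.

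Of 2531 genes whose H3K4me3 peak ranked above the 75th percentile of the WT list, 8 (0.316%) were unmarked in both mutants, of which 7 were on chromosome 1, and EFNA3, EFNA4 and their read-through record EFNA4-EFNA3 were 3 of these. For H3K27me3 the same count was 107 of 891 (12.01%), with 4 members: EFNA2, EFNA3, SEMA3B and SEMA3F. Of these, EFNA2, SEMA3B and SEMA3F had mutant peaks over a listed start or at most 0.315 kb from one, and EFNA3 had none within 10 kb. Both marks at a gene end in WT and no peak of either within 10 kb in D1240A were found at 13 genes (0.0651% of all), and in F1295A at 2 (0.0100%), EFNA3 and IGSF9, which were also among the 13, and in TKO at 5 (0.0250%). The adjoining EFNA1 kept H3K27me3 over its start in every form, with 14.6 kb in D1240A, 19.3 kb in F1295A, 18.0 kb in TKO and 18.3 kb in WT. Its H3K4me3 lay 4.70 to 6.69 kb beyond its start, in peaks that reach the listed start of SLC50A1, so the mark at the far end of EFNA1 cannot be assigned to EFNA1 alone.

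**Figure D4:**
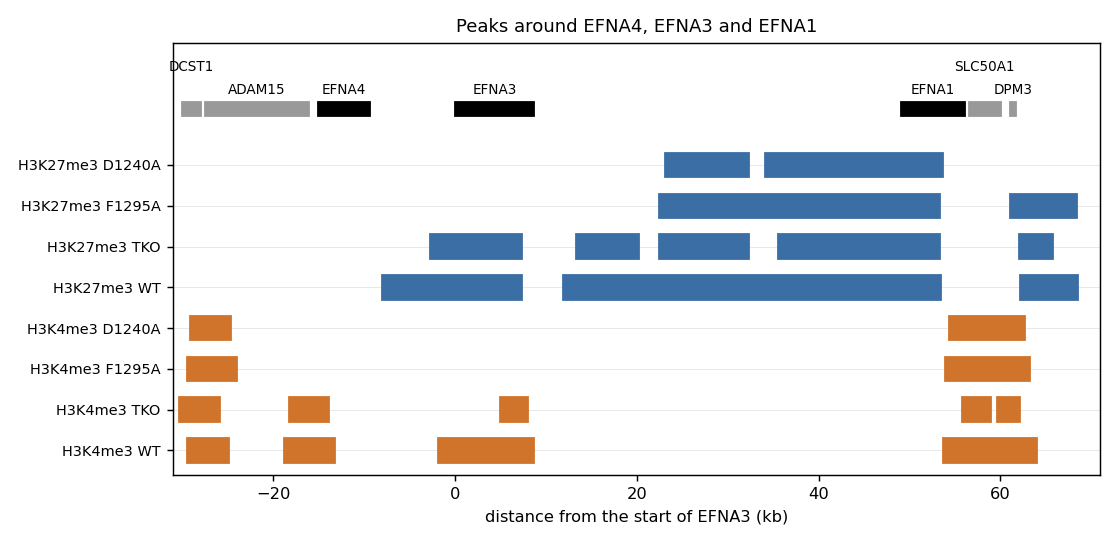
Peaks of H3K27me3 (blue) and H3K4me3 (orange) in each form (rows) by distance from the start of EFNA3 (x axis, kb), with gene records on top (black for the ephrin genes). Around EFNA4 and EFNA3 the rows of D1240A and F1295A are empty for 47.7 and 46.4 kb, while TKO and WT have peaks of both marks.

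Of the 7 secreted semaphorin genes none had H3K4me3 at an end in any list, where 54.6% of all genes had none. SEMA3B, SEMA3F and SEMA3G had H3K27me3. SEMA3F, a class 3 ligand of neuropilin-2, had 5.73 kb in D1240A, 5.75 kb in F1295A, 19.1 kb in TKO and 28.5 kb in WT. The peaks of TKO (69.4th percentile) and WT (81.6th) covered the start of the record, whereas those of D1240A and F1295A were among the weakest of their lists (6.38th and 4.201st percentile) and lay near a listed start inside the record, 0.315 and 0.290 kb from it. SEMA3B, its neighbour on chromosome 3, had 7.39, 7.14, 6.30 and 13.4 kb in D1240A, F1295A, TKO and WT, with a listed start covered in every form. The WT peak alone came within 1 kb of the end of the record, so the difference in calls between forms at SEMA3B is one of peak length and not of presence at a start. At EFNA2 every form had a peak within 1 kb of the listed start, but only the WT peak covered it. SEMA3G had none within 10 kb in the mutants, 12.8 kb in TKO and 15.3 kb in WT, where the peak held the whole record, and the TKO peak ended 4.11 kb short of the start. SEMA3A, SEMA3C, SEMA3D and SEMA3E, which share a stretch of chromosome 7, had no peak of either mark within 10 kb in any list.

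The 13 membrane semaphorins were split between the marks. SEMA4D, also known as CD100, a ligand of plexin-B1 on lymphocytes, had 2.46 kb of H3K4me3 in D1240A, 4.32 kb in F1295A, 2.22 kb in TKO and 3.83 kb in WT, and no H3K27me3. SEMA4B, SEMA4C, SEMA4G and SEMA5A also had H3K4me3 in WT. In SEMA5A the marked length was 3.25 kb in D1240A, 4.02 kb in F1295A, 2.91 kb in TKO and 3.53 kb in WT, over the start. SEMA4B had 5.37 kb in D1240A, 6.06 kb in F1295A, 2.52 kb in TKO and 5.50 kb in WT, of which a peak at the starts of CIB1 and GDPGP1 supplied 2.69 kb in D1240A, 3.17 kb in F1295A, all 2.52 kb in TKO and 3.27 kb in WT. In SEMA4G, the peaks of all forms lay 13.4 to 13.5 kb from its start, at the start of MRPL43. SEMA6A, a ligand of plexin-A2 and plexin-A4, had 5.06 kb in F1295A and 4.42 kb in WT, at the 5.46th and 9.79th percentile, and no peak within 10 kb in D1240A or TKO.

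H3K27me3 was found at SEMA4A, SEMA5B, SEMA6C and SEMA7A. SEMA7A, a lipid-anchored ligand of plexin-C1 and integrins, had no peak within 10 kb in the mutants, 5.21 kb in TKO and 10.6 kb in WT. Its start lay under peaks at the 28.8th percentile in TKO and the 33.2nd in WT, below the 50th percentile of each list. SEMA5B had 8.69 kb in D1240A, 11.0 kb in F1295A, 16.6 kb in TKO and 15.5 kb in WT over its start. At SEMA4A, a ligand in T cell priming, all forms had a peak at the far end of the gene, 15.2 to 17.7 kb from the nearest listed start, and TKO and WT had a second peak over a listed start (7.76 and 7.37 kb wide). SEMA6D had no peak within 10 kb in any list.

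Of the 11 plexin and neuropilin genes, 1 had H3K27me3 in D1240A, 1 in F1295A, 1 in TKO and 2 in WT. The shares of all genes with H3K27me3 were 5.36%, 5.79%, 10.0% and 9.57%. Of the same 11 genes, 4 had H3K4me3 in D1240A, 5 in F1295A, 2 in TKO and 4 in WT. The shares of all genes with H3K4me3 were 41.6%, 44.5%, 39.9% and 43.6%. PLXNA3 had 8.94 kb in D1240A, 11.7 kb in F1295A, 7.003 kb in TKO and 8.196 kb in WT, in peaks at its start and at the neighbouring starts of LAGE3 and UBL4A. PLXNC1, the receptor of SEMA7A, had 4.11 kb in D1240A, 5.38 kb in F1295A, 3.81 kb in TKO and 4.34 kb in WT, between the 87.7th and 91.3rd percentile. PLXNA1, a co-receptor of neuropilin-1 for secreted semaphorins, had 4.88 kb in D1240A, 3.83 kb in F1295A, none within 10 kb in TKO and 5.01 kb in WT. PLXND1, the receptor of SEMA3E, had H3K27me3 in WT alone, 7.37 kb over its start at the 35.8th percentile, and was the only member marked in WT that lacked H3K27me3 within 10 kb in each of the other forms. PLXNB2 had H3K4me3 in F1295A alone, 7.48 kb within 10 kb, from a peak at the end of the record 2.95 kb from its listed start (8.72nd percentile) and another at the start of MAPK11. It was the only member marked in a mutant or TKO and not in WT, for either mark. PLXNA4, PLXNB3, NRP1 and NRP2 had no peak of either mark within 10 kb, and PLXNB1, the receptor of SEMA4D, had only H3K4me3 from the starts of CCDC51 and TMA7, 8.58 to 9.29 kb away.

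Among the 7 netrin genes and receptors, H3K27me3 covered UNC5A and UNC5B in every form. UNC5A had 27.2 kb in D1240A, 20.1 kb in F1295A, 27.04 kb in TKO and 29.6 kb in WT, and UNC5B had 23.6, 23.9, 23.9 and 26.5 kb in the same order of forms. In UNC5A a peak began 0.341 to 0.442 kb from the start in D1240A, TKO and WT and 7.36 kb from it in F1295A, where only the far end of the gene lay within 1 kb of a peak. UNC5C had H3K4me3 in WT alone, 2.07 kb at the 1.15th percentile. UNC5D, DCC, the netrin-1 gene NTN1 and NTN4 had no peak of either mark within 10 kb in any list.

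Both marks stood at an end of the same gene in 3 members in D1240A (0.726% of all genes), 3 in F1295A (0.971%), 2 in TKO (1.12%) and 4 in WT (1.59%), and all 4 genes involved lie on chromosome 1. Without EFNA1, EFNA3, SEMA6C and the other members of their segment of chromosome 1, the counts were 1, 1, 0 and 1. EFNA1 counts in every form, with 0 kb under both in D1240A, 2.21 kb in F1295A, 0.085 kb in TKO and 1.91 kb in WT. EFNA3 had 2.43 kb under both in TKO and 9.23 kb in WT. PLXNA2, a receptor of class 3 and class 6 semaphorins, had H3K27me3 and H3K4me3 over its start in D1240A, F1295A and WT, with 3.18, 3.56 and 2.48 kb under both. In TKO it had no H3K4me3 within 10 kb and the longest H3K27me3, 37.5 kb against 9.54 kb in D1240A, 10.6 kb in F1295A and 14.9 kb in WT. The TKO length includes part of a separate peak of 31.9 kb at the far end of the gene, 198 kb from the start, and the WT length a far peak of 6.04 kb. The TKO peak at the start was 27.4 kb wide, against 9.54 to 10.6 kb in the other forms. SEMA6C likewise lacked H3K4me3 only in TKO, with 6.62 kb under both marks in D1240A, 5.70 kb in F1295A and 4.66 kb in WT, and in TKO 17.3 kb of H3K27me3 and no H3K4me3 within 10 kb. The SEMA6C peaks of H3K4me3 were weak, at the 6.996th, 22.96th and 13.1st percentile of D1240A, F1295A and WT, and those of PLXNA2 at the 13.5th, 30.2nd and 38.03rd. Peaks of bulk cells do not show whether both marks lie on the same allele or in the same cells.

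**Figure D5:**
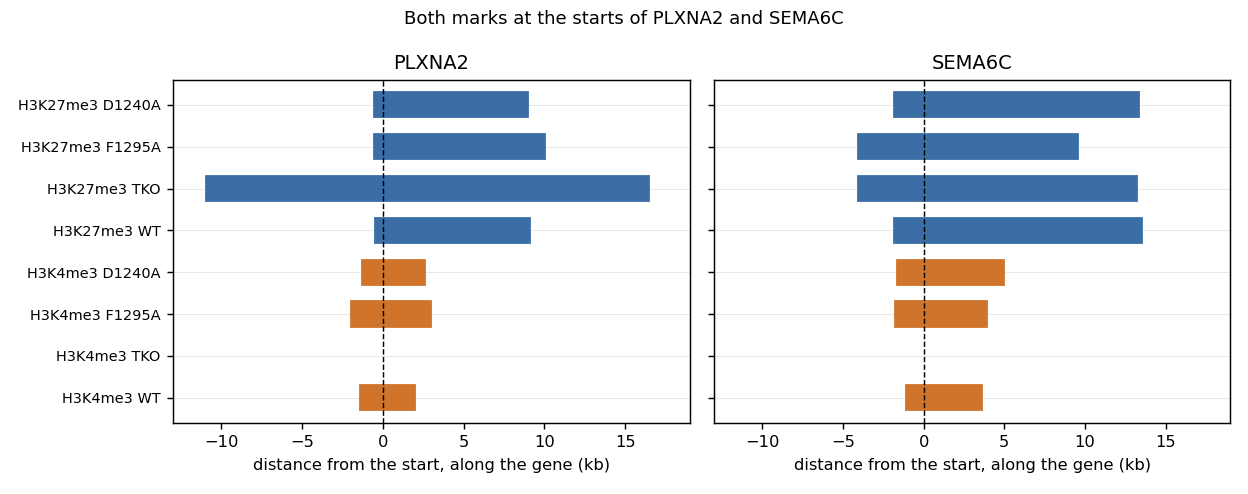
Peaks of H3K27me3 (blue) and H3K4me3 (orange) in each form (rows) by distance from the start (dashed line) along PLXNA2 and SEMA6C (x axis, kb, positive into the gene). H3K27me3 spans the start in all 4 forms, with a TKO peak of 27.4 kb at PLXNA2, and H3K4me3 spans it in every form but TKO.

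D1240A and F1295A were each set against WT. The same 12 members had H3K27me3 in both mutants, and all 12 also had it in TKO and WT. Of the 20 marked in WT, 8 were unmarked in each mutant, namely EPHA10, EFNA2, EFNA3, SEMA3B, SEMA3F, SEMA3G, SEMA7A and PLXND1. This is 40%, against 45.3% of all genes marked in WT for D1240A (4.34% of all genes) and 41.7% for F1295A (3.99%), so the share was near that of genes at large. Of the 20, 5 (EPHA10, EFNA3, SEMA3G, SEMA7A and PLXND1) had no H3K27me3 peak within 10 kb in either mutant. Of the 1911 genes marked in WT, 627 had none within 10 kb in D1240A and 601 in F1295A. These are 3.14% and 3.01% of all genes. With each H3K27me3 list held to its 2083 strongest peaks, 5 members in place of 8 were marked in WT and not in D1240A, and 5 in WT and not in F1295A. No member had H3K27me3 in a mutant and not WT, where the shares of all genes were 0.130% for D1240A and 0.210% for F1295A. For H3K4me3, 5 of 21 members marked in WT were unmarked in D1240A (EPHB6, EFNA3, EFNA4, SEMA6A and UNC5C) and 3 in F1295A (EFNA3, EFNA4 and UNC5C), or 23.8% and 14.3%. Of all WT-marked genes 5.27% and 1.64% were unmarked, which is 2.30% and 0.716% of all genes. Below the 25th percentile of the WT list, 3 of 6 members were unmarked in D1240A (EPHB6, SEMA6A and UNC5C), against 22.5% of 1861 genes. In F1295A it was 1 of 6 (UNC5C), against 6.56%. Above the 75th, 2 of 7 members (EFNA3 and EFNA4) were unmarked in each mutant, against 0.632% of 2531 genes in D1240A and 0.395% in F1295A. Of the members between, 0 were unmarked in either mutant, against 0.526% to 0.637% of such genes in D1240A and 0.0877% to 0.441% in F1295A. EFNA3 and EFNA4 are neighbours, and without their segment of chromosome 1 the counts were 3 for D1240A and 1 for F1295A. No member had H3K4me3 in D1240A and not WT (0.285% of all genes), and PLXNB2 alone had it in F1295A and not WT (1.59%). Both comparisons share the WT lists.

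Plain TKO cells were set against WT. H3K27me3 was missing in TKO at 4 of the 20 members marked in WT (20.0%), EPHA10, EFNA2, SEMA3B and PLXND1, against 18.0% of all WT-marked genes (1.72% of all genes). PLXND1 alone of the 20 had no TKO peak within 10 kb, against 151 of the 1911 genes marked in WT (0.756% of all genes). None of the 16 members marked in TKO was unmarked in WT, against 434 of 2001 marked genes in all (2.17% of all genes). H3K4me3 was missing in TKO at 9 of the 21 members marked in WT (42.9%), against 817 of 8713 genes (9.38%; 4.09% of all genes). These were EPHA7, EPHB6, EFNB1, SEMA4B, SEMA6A, SEMA6C, PLXNA1, PLXNA2 and UNC5C. The WT peaks of these 9 ranked below the 50th percentile: all 6 members below the 25th were unmarked in TKO, against 35.5% of 1861 genes there, and 3 of 7 from the 25th to the 50th, against 4.65% of 2041 genes. Of the 8 members above the 50th percentile, 0 were unmarked in TKO. The shares of all genes there were also low, 1.23% of 2280 from the 50th to the 75th and 1.34% of 2531 above the 75th. With only the stronger 50% of the peaks of each list kept, 1 member was marked by H3K4me3 in WT and not in TKO. No member had H3K4me3 in TKO and not WT (0.325% of all genes).

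The members are long genes, and those without a mark had the longest median record. The median record was 54.7 kb over the 60 members and 24.2 kb over all genes. The 22 members without a mark had a median of 210 kb, up to 1196 kb in DCC, the 16 with only H3K27me3 had 32.9 kb, the 18 with only H3K4me3 had 50.1 kb and the 4 with both 11.8 kb. Over all genes the class medians were 21.5, 16.7, 29.4 and 18.6 kb in the same order, so unmarked genes at large were not the longest class. Among the 27 members of 100 kb or more, 3 had H3K27me3 in each form (11.1%), against 2.24%, 2.48%, 6.03% and 4.21% of all genes of that length in D1240A, F1295A, TKO and WT. Among the 14 members of 25 to 100 kb the counts were 5, 5, 6 and 8, against 4.91%, 5.15%, 9.41% and 8.25% of all genes of that length. Among the 19 members shorter than 25 kb they were 4, 4, 7 and 9, against 6.68%, 7.29%, 11.7% and 12.2%. H3K4me3 marked 31.6%, 36.8%, 31.6% and 47.4% of these 19, against 37.2%, 40.2%, 36.1% and 38.9% of all genes of that length. In WT the members of this length were thus above genes at large. At 25 to 100 kb the H3K4me3 shares were 21.4%, 28.6%, 7.14% and 21.4%, against 48.8%, 51.7%, 46.7% and 50.9%. At 100 kb or more they were 25.9%, 29.6%, 18.5% and 33.3%, against 40.9%, 43.4%, 38.1% and 43.8%.

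Other guidance genes, listed by function, were counted in the same way. Of 25 further ligands and receptors, among them the SLIT, ROBO and RGM genes, 5 had H3K27me3 in D1240A, 5 in F1295A, 7 in TKO and 8 in WT (20.0%, 20.0%, 28.0% and 32.0%), and 5, 5, 3 and 5 had H3K4me3. Those with H3K27me3 in every form were HJV, NTNG2, LINGO1 and RTN4R, and NTNG2 also had H3K4me3 in D1240A, F1295A and WT. SLIT1, a ligand of ROBO receptors, had H3K4me3 in every form and H3K27me3 in TKO and WT. Of 30 intracellular effectors, 2, 3, 5 and 4 had H3K27me3 (6.67%, 10%, 16.7% and 13.3%), and 14, 15, 12 and 16 had H3K4me3 (46.7%, 50%, 40% and 53.3%). Among all genes the shares were 5.36%, 5.79%, 10.0% and 9.57% for H3K27me3, and 41.6%, 44.5%, 39.9% and 43.6% for H3K4me3. SRGAP1, SRGAP2, FARP1, FARP2, ARHGEF12, VAV2, NCK1, NCK2, FYN, CDK5 and TIAM1, with RRAS, had H3K4me3 in every form. DPYSL4, of the collapsin response mediator family, and ARHGEF11, a RhoA exchange factor bound by B plexins, had H3K27me3 in every form. ARHGEF11 also had H3K4me3 in D1240A, F1295A and WT and not in TKO.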

How the data were processed

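The deposited data were 8 peak lists, 1 per form and mark. IgG samples are not used here. The submitters' processing notes name SEACR 1.3, a peak caller, Bowtie2 2.4.5, Trimmomatic 0.36, FastQC 0.11.4 and GRCh38, but how SEACR was run is not given in the sources used here. The labels of both H3K27me3 replicates of each form name a single list. The deposited lists give the authors' total signal (coverage) per peak, whose scaling is not given, so total signal was used only to rank peaks within a list. Depth is unknown, since a peak list carries no read total, and no interval is given.

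Peaks were joined to RefSeq gene records (GRCh38.p14, protein-coding, chromosomes 1 to 22 and X) with Python 3.11.15, pandas 2.3.3 and numpy 2.4.6, and plots were drawn in matplotlib 3.10.9. A gene was marked where at least 1 bp of a peak lay within 1 kb of a record end. A listed start was known for 51 of 60 members and 15813 of 19974 genes. Peak joining was tested on simulated data. No test between forms was run, since no list had a replicate.

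The members and gene lists were chosen with earlier results of these data known. The text gives values in every list for members marked in one form of a pair with WT while the other had no such peak up to 10 kb away, members with both marks, and the 5 members with the most H3K27me3 in WT, and the others by family. Alternatives changed the window, the end read, the overlap, the peak width or the length of the lists, or left out a segment of chromosome 1 from 150 to 162 Mb.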

Additional observations from a re-analysis of the deposited data

How the results depend on the processing

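Of 188 recomputed counts, 163 stayed within 1.5 times the reported count, among them counts of 0 that stayed at 0. Keeping only peaks of at least 1 kb could change no value, since the narrowest peak near a member was 2.07 kb wide. With equal peak numbers (2083 for H3K27me3 and 7396 for H3K4me3, the strongest of each list), 5 members in place of 8 were marked by H3K27me3 in WT and not D1240A, 5 in place of 8 in WT and not F1295A, and 0 in place of 1 by H3K4me3 in F1295A and not WT. Where the other form had to lack any peak up to 10 kb away, the H3K27me3 counts were 5 for D1240A, 5 for F1295A and 1 in place of 4 for TKO. With only the listed start read, TKO had 0 members with both marks and 0 members had H3K4me3 in F1295A and not WT, and with at least 500 bp covered TKO had 1 with both marks. In the stronger 50% of each list H3K4me3 marked 5 members in D1240A, 7 in F1295A, 7 in TKO and 8 in WT, 3 in WT and not D1240A and 1 in WT and not TKO, both marks stood at 1, 1 and 2 members in D1240A, F1295A and WT, and 1 member had H3K27me3 in TKO and not WT. Without the chromosome 1 segment, which holds 5 members, both marks stood at 1, 1, 0 and 1 members in D1240A, F1295A, TKO and WT, and H3K4me3 was in WT and not in D1240A at 3 members and not in F1295A at 1. The number of forms marked at a single member was the same in 205 of 252 recomputed values, which also include the setting of peaks of at least 1 kb. No paired analysis was possible because both H3K27me3 replicates of a form share a list, each H3K4me3 list comes from 1 sample, and so no replicate could be left out. The cause of these moves was not tested. Unknown depth limits every count of missing peaks.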
